A study of Arabidopsis thaliana with 27 samples.

Results

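Shoots of Arabidopsis thaliana Col-0, a wild-type accession, lacking both iron and phosphate (−Fe−P) were compared at 52 h and at 39 h after transfer, 13 h apart. The members were the 6 samples of these groups, taken by their labels, 3 per group, out of 27 samples in the series. All plants grew for 7 days with both nutrients before they were moved to −Fe−P (iron left out and phosphate lowered but not removed), to −Fe+P (iron left out) or to the complete medium, +Fe+P, on vertical agar plates under continuous light. The other media, each with 3 samples at 52 h and 3 at 39 h, were used to ask which changes over the same interval differed with the medium. By the labels all groups share the genotype, the organ and the growth before transfer. The 52 h shoots were older, had been longer on the medium and were collected at another time of day, and these cannot be told apart within −Fe−P. The samples are labelled as replicates, but how many plants were pooled in each is not given. The p-values thus measure the spread between samples, as pooled over all 27. In whole shoots, fewer cells of a type and less RNA per cell cannot be told apart.

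Plants respond to low phosphate through the transcription factor PHR1, which binds a short palindrome, the P1BS element, in front of genes for acid phosphatases, phosphate transporters, lipid-remodeling enzymes and regulatory RNAs. SPX proteins hold PHR1 back when phosphate is plentiful, and the microRNA miR399 relieves repression of transport by targeting the PHO2 transcript. Iron deficiency works through a cascade of bHLH transcription factors, of which the subgroup with bHLH38 and bHLH100 is strongly transcribed when iron is short. Independently of nutrients, the circadian clock drives much of the shoot transcriptome, with CCA1 and LHY peaking around dawn and TOC1 and its partners around dusk, and it keeps running under continuous light.

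Expression was deposited as TPM, a measure of transcript level that is corrected for gene length and has one common sum for all samples. A log2 change is the difference of group means of log2(TPM + 0.5), given as 52 h minus 39 h with its standard error, and it understates the change of weakly expressed genes. A gene was called when its adjusted p was under 0.05 and its change at least 2-fold, in a limma fit of 18910 genes over all 27 samples. The fit gives each gene 1 spread for all groups. For genes nearly silent outside −Fe−P, the standard errors and p-values can therefore understate the spread between the −Fe−P samples. "Rose" and "fell" are used for called genes. Shoot genes were high in all 6 samples, with the Rubisco small subunit gene RBCS1A at 25454 to 26530 TPM. Reads recovered from the TPM steps came to 31.4 to 44.3 megareads at 52 h and 38.6 to 53.7 megareads at 39 h.

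−Fe−P 39 h replicate 1 stood apart from its mates. In this library 671 genes were at least 2-fold from the mean of its mates, 307 above and 364 below, against 39 to 229 genes in each of the other 26 samples. The summed level of 18 xylem and secondary wall markers was 90.1, 86.6 and 68.1 TPM at 52 h, against 22.7, 115 and 126 TPM at 39 h, and all 18 were lower in 39 h replicate 1 than in both mates. The sum of 15 seed storage markers was 7.03, 4.81 and 6.0 TPM at 52 h, against 99.3, 6.41 and 5.89 TPM at 39 h, with 4 of the genes at 0 in all 52 h samples. This library was thus low for every xylem marker and high for 14 of 15 seed storage markers. These lists had been drawn up partly from this library, so they are no independent evidence about it. The 17 root markers summed to 529, 383 and 459 TPM at 52 h, against 461, 551 and 581 TPM at 39 h, and the 10 guard cell markers to 114, 109 and 91.1 TPM, against 103, 116 and 129 TPM.

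In most genes that rose, this library and replicate 1 at 52 h lay nearer to each other than their mates did. Among the 569 genes that rose at 52 h, 39 h replicate 1 was the highest of its group in 477, 52 h replicate 1 was the lowest of its group in 552 and both held in 465. Over all 18910 genes tested, the counts were 5132, 8410 and 2595. On a scale from 0 at the mean of its mates to 1 at the mean of the 52 h group, the median position of 39 h replicate 1 was 0.41 over the genes that rose and −0.06 over the 35 that fell, in 11 of which it was the lowest of its group and in 18 the highest. Its part in the results was measured by leaving it out, alone and together with 52 h replicate 1. Since the number 1 does not pair these libraries by any label, leaving them out together was an alternative chosen after seeing the data.

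**Figure D1:**
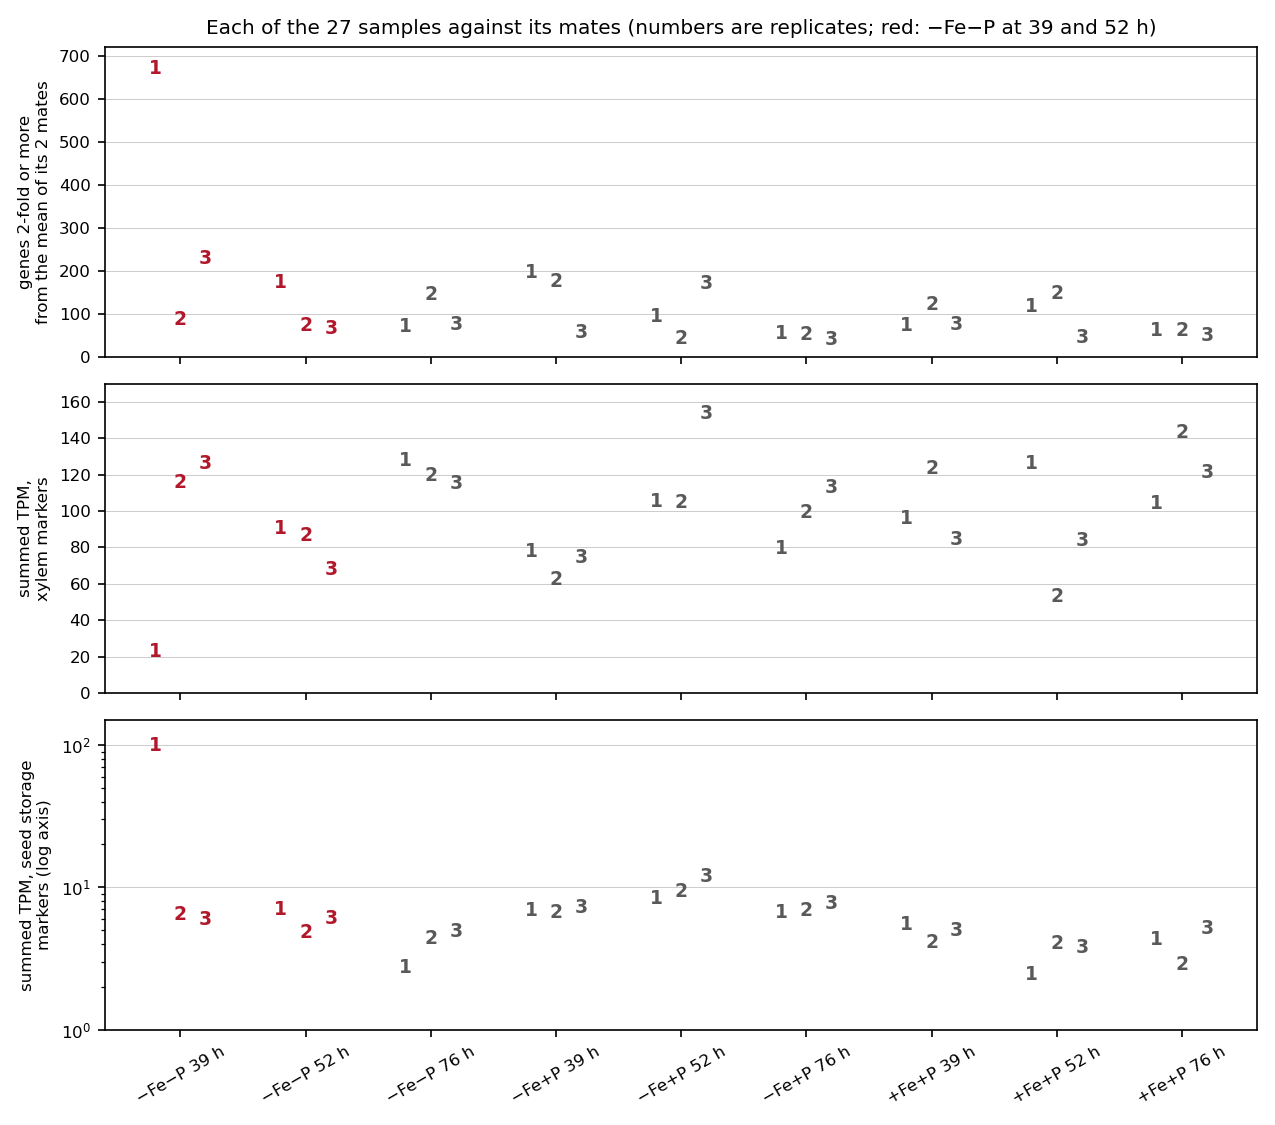
Number of genes at least 2-fold from the mean of their group mates in each of the 27 samples (top), and summed TPM of xylem markers (middle) and of seed storage markers (bottom, log axis); numerals are replicates, and red marks −Fe−P at 39 h and 52 h. −Fe−P 39 h replicate 1 has 671 such genes and all others 39 to 229, with its xylem sum at 22.7 TPM and its seed storage sum at 99.3 TPM.

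Between 39 h and 52 h, more genes passed the 2-fold mark as higher than as lower, while without that mark more passed as lower. At 52 h 569 of 18910 genes were called higher (3.01%) and 35 lower (0.185%) than at 39 h. Without the fold minimum, 2956 genes passed the test as higher and 3724 as lower, and the median over all genes was −0.03. The 6 samples did not overlap in 538 of the 569 genes and 28 of the 35, against 3029 genes above and 4071 below over all tested genes. Without both replicate 1 libraries 844 genes were called higher, 563 of the 569 among them, and 124 lower, 29 of the 35 among them. The count of lower genes was 56 without 39 h replicate 1, 87 without 52 h replicate 1 and 10 without 52 h replicate 2.

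**Figure D2:**
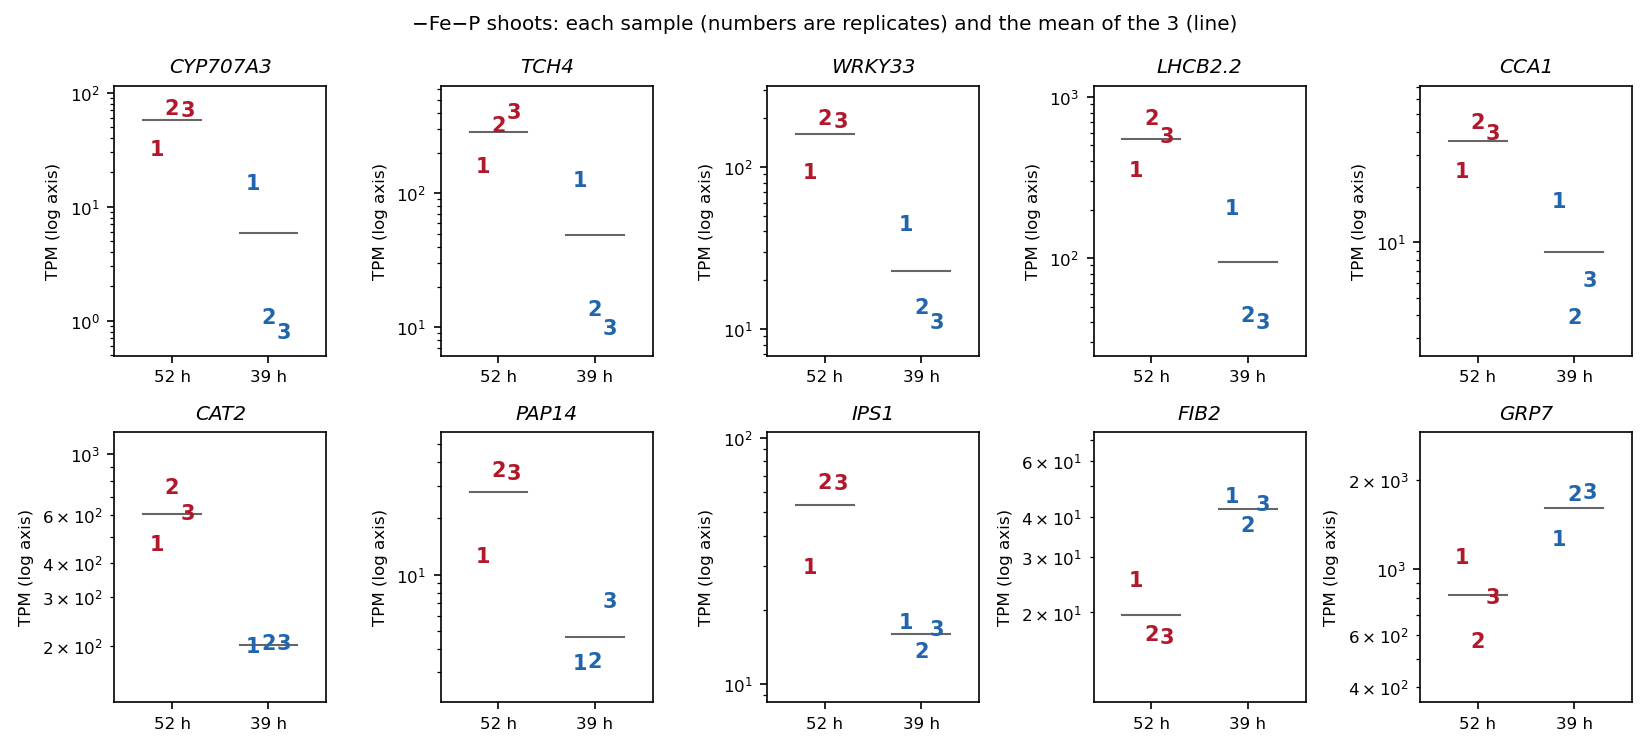
TPM of 10 genes, 1 per panel, in the 3 samples at 52 h (red) and the 3 at 39 h (blue) in −Fe−P, on log axes that differ between panels, with numerals for replicates and lines at the group means. The times do not overlap in any panel, and CYP707A3, TCH4, WRKY33, LHCB2.2 and CCA1 have 39 h replicate 1 above its mates.

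Genes known from the phosphate starvation response were prominent where the change differed from both other media. The change between 39 h and 52 h was larger in −Fe−P than in +Fe+P and also larger than in −Fe+P, each by a test of the difference, for 13 genes, and smaller in both for none. All 13 were lost when only the samples of each comparison entered the fit, where 59 genes had a larger change than in +Fe+P and 0 a larger change than in −Fe+P, so the count of 13 rests on a spread estimated over all 27 samples. The 13 were the purple acid phosphatases PAP5, PAP14, PAP24 and PAP25, the non-coding RNA IPS1, the miR399 precursor MIR399c, the kinase gene PPCK2, ENH1, and AT1G72416, AT1G67920, AT2G04460, AT5G17340 and AT1G08310. Against each medium separately, the change was larger in −Fe−P than in +Fe+P for 201 genes (1.06%) and smaller for 11 (0.0582%), and larger than in −Fe+P for 20 (0.106%) and smaller for 15 (0.0793%). The comparisons share the −Fe−P samples, so the 13 genes are a count fixed by their joint rule and not an independent overlap.

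The promoters of 3 of these phosphatases are shown because they share the P1BS element, here the letters GNATATNC, which read the same on both strands. Each run is 300 bases, 250 before the annotated start and 50 after it, from RefSeq TAIR10.1 in the sense of the gene, with the element in capitals. PAP14 lies at chr2:19266407-19266706 on the minus strand, PAP24 at chr4:12814407-12814706 on the minus strand and PAP25 at chr4:17175808-17176107 on the minus strand. The elements begin 141 and 104 bases before the start of PAP14, 153 before that of PAP24 and 157 before that of PAP25.
PAP14: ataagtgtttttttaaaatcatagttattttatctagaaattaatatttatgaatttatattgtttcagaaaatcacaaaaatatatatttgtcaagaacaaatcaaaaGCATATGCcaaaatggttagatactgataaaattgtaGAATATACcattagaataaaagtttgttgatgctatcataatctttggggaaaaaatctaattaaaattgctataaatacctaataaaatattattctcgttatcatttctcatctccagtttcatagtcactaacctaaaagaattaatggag
PAP24: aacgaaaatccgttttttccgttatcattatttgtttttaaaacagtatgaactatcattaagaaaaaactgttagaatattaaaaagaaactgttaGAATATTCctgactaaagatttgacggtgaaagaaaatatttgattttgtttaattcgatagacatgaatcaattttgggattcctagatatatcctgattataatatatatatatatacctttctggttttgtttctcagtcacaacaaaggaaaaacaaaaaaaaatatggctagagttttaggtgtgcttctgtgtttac
PAP25: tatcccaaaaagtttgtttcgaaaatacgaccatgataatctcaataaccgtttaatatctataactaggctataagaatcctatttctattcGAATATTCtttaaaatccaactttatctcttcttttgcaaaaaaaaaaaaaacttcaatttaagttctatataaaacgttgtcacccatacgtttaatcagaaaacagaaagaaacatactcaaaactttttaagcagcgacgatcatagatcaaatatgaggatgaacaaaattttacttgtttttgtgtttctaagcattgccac
Of the 13 genes, 9 held the element in this window (69.2%), against 1173 of 18681 windows over all tested genes (6.28%). The element was also in 74 of the 569 genes that rose (13%) and in 1 of 33 windows of genes that fell (3.03%). A match is a run of letters and no evidence of binding.

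Purple acid phosphatases, which release phosphate from organic esters, carried the largest of these differences. PAP14 was at 12.4, 36.2 and 34.6 TPM at 52 h, against 3.29, 3.4 and 7.16 TPM at 39 h, a log2 change of 2.4 ± 0.27 (adjusted p = 9.42e-06). All 3 samples at 52 h lay above all 3 at 39 h, and replicate 1 was the lowest at 52 h. The gene was nearly silent outside −Fe−P, where it did not pass 0.0499 TPM in any of the 12 samples at these times, and it went on to 84, 64.9 and 86.4 TPM at 76 h in −Fe−P. Its change exceeded that in +Fe+P by 2.42 ± 0.38 (adjusted p = 0.00405) and that in −Fe+P by 2.41 ± 0.38 (adjusted p = 0.00617). The standard error of 0.27 is shared with the media where PAP14 was nearly silent. It is thus tighter than the −Fe−P samples alone would give, and the same holds for PAP24 and IPS1. PAP24 was at 3.42, 9.95 and 9.77 TPM at 52 h, against 1.18, 1.14 and 1.54 TPM at 39 h, a log2 change of 2.07 ± 0.24, and reached 29.2, 25 and 28 TPM at 76 h. The groups did not overlap, and its differences from +Fe+P and −Fe+P were 2.04 ± 0.34 and 2.02 ± 0.34 (adjusted p = 0.00539 and 0.00707).

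A list of phosphatases and nucleases, which also held the kinase genes PPCK1 and PPCK2, was called in part. Of its 11 members tested, 5 rose and none fell in −Fe−P (3.01% and 0.185% over all tested genes), and 6 were not called, with a median log2 change of 0.89, against −0.03 over all tested genes. The median of the same list was 0.00 in +Fe+P and 0.05 in −Fe+P. The first is the value of PAP25, at 0 TPM in every +Fe+P sample at these times. The second is that of PAP24, at means of 0.183 and 0.163 TPM. With a pseudocount of 0.5 such genes can hardly show a change, so these medians are no measure of stability. PAP25 was at 1.4, 3.1 and 3.12 TPM at 52 h, against 0.346, 0.395 and 0.791 TPM at 39 h (log2 change 1.56 ± 0.19, adjusted p = 1.66e-05). PEPC1, here a phosphatase of phosphoethanolamine and phosphocholine, was at 43.7, 115 and 120.3 TPM at 52 h, against 25, 28.4 and 35.2 TPM at 39 h (log2 change 1.52 ± 0.25). RNS1, a ribonuclease induced by phosphate starvation, was at 5.34, 8.56 and 11.5 TPM at 52 h, against 1.67, 2.43 and 4.36 TPM at 39 h (log2 change 1.45 ± 0.27). None of the 3 overlapped between the times, and in each of them replicate 1 was the lowest at 52 h. PPCK2, a kinase of phosphoenolpyruvate carboxylase, was at 8.91, 18.3 and 13.6 TPM at 52 h, against 3.74, 4.1 and 5.23 TPM at 39 h (log2 change 1.49 ± 0.21, adjusted p = 2.83e-05). Other purple acid phosphatases did not pass the test: PAP17 changed by −0.11 ± 0.2 and PAP12 by 0.02 ± 0.13 (adjusted p = 0.712 and 0.919). With genes of at least 5 TPM only, 2 members were called.

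Phosphate signaling was represented mainly by its RNAs. IPS1 is a non-coding RNA that mimics a target of miR399 and so keeps it from the PHO2 transcript. It was at 29.6, 65.5 and 65 TPM at 52 h, against 17.6, 13.4 and 16.5 TPM at 39 h, a log2 change of 1.64 ± 0.22 (adjusted p = 2.31e-05) that became 2.09 without both replicate 1 libraries. Every sample at 52 h was above every sample at 39 h, and by 76 h the level was 267, 284 and 246 TPM. The differences of its change from +Fe+P and −Fe+P were 1.55 ± 0.3 and 1.68 ± 0.3 (adjusted p = 0.0101 and 0.00854). The miR399c precursor MIR399c, named after its values were seen, was at 1.59, 2.64 and 2.72 TPM at 52 h, against 0.283, 0.882 and 0.555 TPM at 39 h (log2 change 1.4 ± 0.26). The level is that of the precursor transcript, not of the mature microRNA. The precursor is short (chr5:24962485-24962598), so its TPM stand for fewer reads than the same TPM of a longer gene. Its values rest on few reads.

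The pairing between the 2 RNAs is shown because both rose. The mature microRNA is at chr5:24962568-24962588 on the plus strand, with its seed (bases 2 to 8) in capitals, and the site in IPS1 at chr3:3051224-3051247 on the plus strand of the same assembly, with the 3 unpaired bases in capitals.
miR399c-3p: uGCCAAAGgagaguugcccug
IPS1 site: uugggcaacuuCUAuccuuuggca
Of the 21 bases of the microRNA, 20 pair with the site when G:U pairs are counted, and the next best window of IPS1 pairs with 15.

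The rest of the phosphate lists passed in few members. Of 9 signaling genes, IPS1 alone was called (3.01% over all tested genes rose), with a list median of 0.35 (0.09 in +Fe+P and 0.09 in −Fe+P). SPX3, an inhibitor of PHR1, was at 13.3, 24.5 and 26.1 TPM at 52 h, against 7.87, 10.8 and 12.5 TPM at 39 h, a log2 change of 0.97 ± 0.2 that passed the test (adjusted p = 7.08e-04) and stayed just under 2-fold. AT4, a relative of IPS1, was at 372, 676 and 711 TPM at 52 h, against 353, 377 and 421 TPM at 39 h (log2 change 0.56 ± 0.29, adjusted p = 0.148). In both genes replicates 2 and 3 at 52 h were above every 39 h sample, and 52 h replicate 1 lay near or within the 39 h range. Of 8 phosphate transporters none was called, and 3 passed the adjusted p as higher, against 2956 of 18910 over all tested genes. PHO1, which loads phosphate into the xylem, was at 25.3, 27.9 and 32.1 TPM at 52 h, against 7.41, 25.3 and 26.1 TPM at 39 h, where replicate 1 alone was low. Its log2 change was 0.71 with all libraries and 0.21 without both replicate 1 libraries, and xylem markers were low in the same 39 h library. PHT1;1 and PHT1;2, transporters so alike that reads could be split between them, showed the same low library at 39 h, with PHT1;1 at 1.63, 7.17 and 9.09 TPM. The log2 change of PHT1;1 was 0.04 with all libraries (adjusted p = 0.947) and −0.67 without both replicate 1 libraries.

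Of 13 genes of membrane lipid remodeling, by which plants replace phospholipids with lipids free of phosphate, 3 rose and none fell (3.01% and 0.185% over all tested genes), with a median of 0.40 (−0.08 in +Fe+P, 0.16 in −Fe+P). GDPD6, a glycerophosphodiester phosphodiesterase, was at 2.15, 6.6 and 7.0 TPM at 52 h, against 1.08, 0.602 and 0.709 TPM at 39 h (log2 change 2.02 ± 0.26, adjusted p = 2.22e-05). NPC4, a phospholipase C, was at 3.38, 9.41 and 9.64 TPM at 52 h, against 1.17, 2.54 and 2.56 TPM at 39 h (log2 change 1.55 ± 0.27). The times did not overlap in either gene. GDPD2 rose by 1.12 but not without 39 h replicate 3 (0.97) or 52 h replicate 3 (0.93). The sulfolipid and galactolipid synthases were not called, SQD1 at −0.1, SQD2 at 0.4, MGD2 at 0.4 and MGD3 at 0.61. The P1BS letters stood in 9 of the 13 promoters (69.2%), against 6.28% of all windows.

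**Figure D3:**
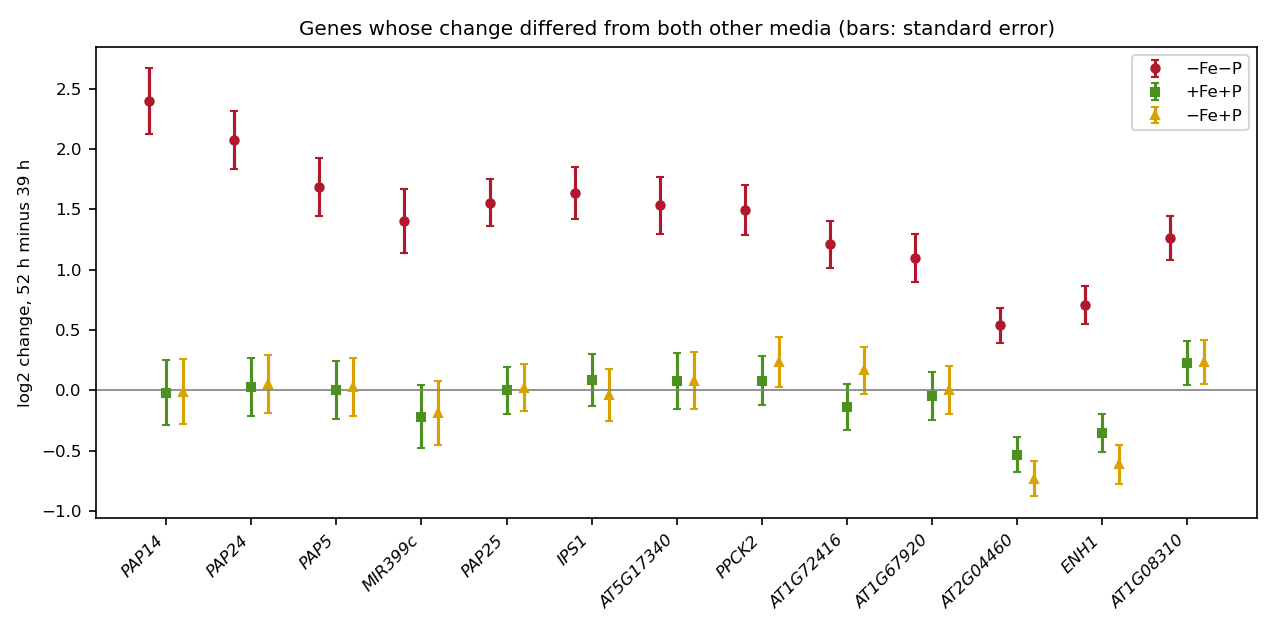
Log2 change from 39 h to 52 h in −Fe−P, +Fe+P and −Fe+P, with standard errors, for the genes whose change was larger in −Fe−P than in both other media. PAP14, PAP24, IPS1 and PPCK2 lie between 1.49 and 2.40 in −Fe−P and between −0.04 and 0.23 in the other media, whereas AT2G04460 and ENH1 lie below 0 in the other media.

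Several of the 13 genes had no listed role in phosphate use. AT1G72416, annotated as a DnaJ-domain protein, was at 24, 33 and 44.1 TPM at 52 h, against 18.7, 12.3 and 11.6 TPM at 39 h (log2 change 1.21 ± 0.19, in +Fe+P −0.14). At 76 h in −Fe−P it was again near its 39 h level, at 12.6, 13.8 and 15.3 TPM. AT1G67920, an uncharacterized protein, was at 11.4, 17.2 and 15.8 TPM at 52 h, against 7.9, 5.09 and 7.0 TPM at 39 h (log2 change 1.1 ± 0.2, in +Fe+P −0.05). Neither overlapped between the times. ENH1, a rubredoxin family protein, was at 26.5, 34.8 and 29.5 TPM at 52 h, against 20.8, 19.3 and 15 TPM at 39 h, and its change of 0.71 ± 0.16 passed the test without reaching 2-fold. In +Fe+P its means were far higher, 217 TPM at 52 h and 282 TPM at 39 h. In −Fe+P they were 12.6 and 19.8 TPM. The same gene changed by −0.36 in +Fe+P and −0.62 in −Fe+P. AT2G04460, uncharacterized, likewise changed by 0.54 ± 0.15, against −0.54 with the complete medium and −0.74 without iron alone. With each of 12 libraries left out in turn, the differences of PAP14, PAP24 and IPS1 from both media stayed called. With only the samples of each comparison none of them did, with adjusted p from 0.0555 to 0.0761 against +Fe+P and from 0.189 to 0.199 against −Fe+P. The difference of AT1G67920 from −Fe+P was lost for 10 of 12 libraries and that of AT1G72416 for 9, with adjusted p up to 0.153 and 0.158.

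Few iron deficiency genes were called in −Fe−P. Of 25 tested, 1 rose and none fell, near the 3.01% and 0.185% over all tested genes, with a median of −0.06 (−0.10 in +Fe+P, 0.19 in −Fe+P). In +Fe+P none rose and 4 fell (background 0.724% and 0.238%), and in −Fe+P 2 rose and none fell (background 2.45% and 0.143%). bHLH38, a transcription factor of the deficiency response, was at 342, 345 and 355 TPM at 52 h, against 335, 460.3 and 573 TPM at 39 h (log2 change −0.36 ± 0.43, adjusted p = 0.547). It overlapped between the times, as did bHLH39, a near-identical copy (log2 change −0.31), and bHLH100 (−0.17). The called gene was FRO6, a ferric reductase of green tissue, at 38, 65.7 and 55.8 TPM at 52 h, against 25.5, 22 and 14.7 TPM at 39 h (log2 change 1.34 ± 0.18, adjusted p = 2.76e-05). It also changed by 1.16 in −Fe+P and 0.76 in +Fe+P. IRT1 and CYP82C4, root genes of the same response, were low in 39 h replicate 1 (1.35 and 0.0710 TPM, against at least 5.41 TPM in its mates).

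Among 25 genes for ferritins, iron carriers and enzymes that use iron, CAT2 alone was called (3.01% over all tested genes rose). The list median was 0.27 (−0.05 in +Fe+P, −0.27 in −Fe+P). Without the fold minimum 9 of the 25 passed as higher and 5 as lower, against 2956 and 3724 of 18910 over all tested genes. CAT2 encodes a heme catalase of peroxisomes and was at 466, 751 and 605 TPM at 52 h, against 198, 203 and 202 TPM at 39 h, a log2 change of 1.57 ± 0.17 (adjusted p = 7.67e-06). The times did not overlap and the 39 h samples differed by little. The change was larger than in +Fe+P by 1.44 ± 0.23 (adjusted p = 0.00505), while the difference from −Fe+P was 0.34 ± 0.23 (adjusted p = 0.539). In +Fe+P CAT2 was at 871, 645 and 884 TPM at 52 h, against 780, 777 and 628 TPM at 39 h. The −Fe−P mean at 52 h, 607 TPM, was below the +Fe+P mean of 800 TPM, with overlapping samples. The ferritins FER1, FER3 and FER4, which store iron in plastids, changed by −0.13, −0.62 and −0.44. The plastid iron superoxide dismutases FSD2 and FSD3 passed the test as lower without 2-fold, at −0.57 and −0.85 (adjusted p = 5.91e-05 and 7.67e-06).

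Genes of stress responses were among those with the largest rises. CYP707A3, which breaks down abscisic acid, was at 31.3, 71.6 and 68.9 TPM at 52 h, against 15.7, 1.06 and 0.782 TPM at 39 h, a log2 change of 4.09 ± 0.77 (adjusted p = 3.4e-04). TCH4, a touch-inducible wall enzyme, was at 157, 315 and 395 TPM at 52 h, against 124, 13.5 and 9.78 TPM at 39 h (log2 change 3.37 ± 0.67). In both genes 39 h replicate 1 lay between its mates and the 52 h samples, and the change became 5.65 and 4.88 without both replicate 1 libraries. WRKY33, a transcription factor of defense against fungi, was at 92.2, 197 and 189 TPM at 52 h, against 43.7, 13.5 and 10.9 TPM at 39 h (log2 change 2.98 ± 0.51, adjusted p = 1.54e-04). WRKY40, a repressor paralogous to WRKY18, was at 17.4, 37.4 and 39.6 TPM at 52 h, against 8.14, 2.21 and 1.32 TPM at 39 h (log2 change 3.11 ± 0.64). These transcription factors did not overlap between the times either.

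Of 17 rapid stress regulators, an ERF, WRKY, zinc finger and calmodulin-like list, 15 rose and none fell (3.01% and 0.185% over all tested genes), with a median of 2.13 against −0.03 over all tested genes. The count ran from 11 to 16 with 1 library left out, and was 16 without both replicate 1 libraries. The list median was 1.89 in −Fe+P, where 13 rose, and 0.41 in +Fe+P, where none was called (over all tested genes 2.45% rose in −Fe+P and 0.724% in +Fe+P). The difference from +Fe+P was called for 3 of the 17, and that from −Fe+P for none. The −Fe+P 39 h samples were spread in the same way, with TCH4 at 75.0, 10.1 and 26.9 TPM. In +Fe+P at 39 h replicate 2 was the high sample, with TCH4 at 13.2, 30.4 and 13.3 TPM. WRKY33 was there at 6.6, 14.9 and 7.5 TPM, against 8.72, 15.1 and 15.6 TPM at 52 h. The lack of calls in +Fe+P was not tested without that library, so it does not show that these genes stayed unchanged there. Other genes with the largest changes were HSPRO2 (3.79), a nematode resistance homolog, the kelch-repeat gene AT1G80440 (3.58) and the zinc finger gene ZAT7 (3.5). DREB26 (3.48), an AP2/ERF factor, PHI-1 (3.48), AT4G29780 (3.34), the mitochondrial dicarboxylate carrier DIC2 (3.27) and PUP18 (2.98) followed. Of these, the difference from +Fe+P was called for AT4G29780 (3.14, adjusted p = 0.037) and PUP18 (2.43, adjusted p = 0.0341).

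Hormone genes rose in part. Of 27 jasmonate genes, 6 rose and none fell, against 3.01% and 0.185% over all tested genes (median 0.26), and 3 were called without 39 h replicate 3 or without 52 h replicate 3. LOX4, a lipoxygenase of jasmonate synthesis, was at 12.9, 18.4 and 24.6 TPM at 52 h, against 3.9, 2.65 and 2.38 TPM at 39 h, a log2 change of 2.44 ± 0.28 (adjusted p = 9.95e-06). It differed from the change in +Fe+P by 2.6 ± 0.39 (adjusted p = 0.00361), and the times did not overlap. JAZ1, a repressor of jasmonate responses, was at 16.5, 19.7 and 27.4 TPM at 52 h, against 10.7, 7.14 and 5.16 TPM at 39 h (log2 change 1.43 ± 0.36). Of 22 drought and abscisic acid genes, 4 rose (again against 3.01%), among them RD26, a NAC factor, at 5.47, 6.24 and 7.89 TPM at 52 h, against 3.04, 1.65 and 1.47 TPM at 39 h (log2 change 1.5 ± 0.19). NCED3, which makes abscisic acid, rose by 1.15, while CYP707A3, which removes it, rose by 4.09. Of 18 salicylic acid and defense genes, 3 rose (against the same 3.01%), with CBP60G, a calmodulin-binding activator of salicylic acid synthesis, at 8.1, 17.9 and 16.3 TPM at 52 h, against 5.46, 3.8 and 3.54 TPM at 39 h (log2 change 1.56 ± 0.3). The defense output gene PR2 was the lowest of that list at −0.93 and was not called.

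Most of the morning clock genes tested rose in each of the 3 media. Of 18 morning-phased genes, 11 rose and none fell in −Fe−P (background 3.01% and 0.185%), with a median of 1.40, against 14 called in +Fe+P (background 0.724%) and 14 in −Fe+P (background 2.45%), with medians of 1.82 and 1.62. CCA1, a MYB factor of the morning loop, was at 24, 44.3 and 38.8 TPM at 52 h, against 16.5, 3.85 and 6.12 TPM at 39 h, a log2 change of 2.16 ± 0.34 (adjusted p = 7.2e-05, against 2.41 with the complete medium and 2.48 without iron alone). LHY, its partner, was at 46.9, 77.1 and 60.3 TPM at 52 h, against 29.4, 8.21 and 12 TPM at 39 h (log2 change 2.03 ± 0.3). In both genes 39 h replicate 1 was above its mates and below every 52 h sample. RVE1, a related factor of auxin and germination control, rose by 2.33, and LNK4, a coactivator partner, by 2.49. Without both replicate 1 libraries the count was 14. PRR9, a pseudo-response regulator, passed the test at 0.76 without 2-fold, against 2.1 in +Fe+P, and its change was smaller than there (adjusted p = 0.0139), a difference that was lost without +Fe+P 39 h replicate 2 (adjusted p = 0.0537) and with only the samples of the comparison (adjusted p = 0.0687).

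The promoters of CCA1 and RVE1 are shown because many of the morning list carry the G-box, CACGTG, which reads the same on both strands and stands in capitals. They lie at chr2:19245341-19245640 on the plus strand and chr5:5692943-5693242 on the minus strand of RefSeq TAIR10.1, with the box 193 and 111 bases before the start.
CCA1: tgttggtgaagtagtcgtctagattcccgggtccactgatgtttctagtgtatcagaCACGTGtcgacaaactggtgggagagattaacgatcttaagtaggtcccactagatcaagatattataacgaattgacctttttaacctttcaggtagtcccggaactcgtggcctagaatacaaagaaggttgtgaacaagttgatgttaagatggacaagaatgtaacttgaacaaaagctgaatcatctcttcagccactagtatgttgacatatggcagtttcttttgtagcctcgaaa
RVE1: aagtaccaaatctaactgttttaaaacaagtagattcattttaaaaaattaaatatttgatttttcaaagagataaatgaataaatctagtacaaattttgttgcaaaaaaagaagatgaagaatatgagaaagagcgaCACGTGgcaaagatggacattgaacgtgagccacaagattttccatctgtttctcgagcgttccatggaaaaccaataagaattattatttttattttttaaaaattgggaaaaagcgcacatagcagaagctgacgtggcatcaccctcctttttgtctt
The letters were in 11 of 18 morning promoters (61.1%), against 8.8% of 18681 windows. The evening element, AAAATATCT, searched on both strands, was in 3 of 18 morning promoters (16.7%) and 3.06% of all. The CCA1 binding site, AAAAATCT, searched likewise, was in 1 of 18 (5.56%), against 8.11% of all.

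Few evening clock genes were called in −Fe−P, and more in the other media. Of 16, 1 was called lower and none higher in −Fe−P (0.185% and 3.01% over all tested genes). In +Fe+P 4 were called lower and 2 higher (background 0.238% and 0.724%), and in −Fe+P also 4 and 2 (background 0.143% and 2.45%). The gene called in −Fe−P was GRP7, a glycine-rich RNA-binding protein of a slave oscillator. GRP7 was at 1095, 569.7 and 799 TPM at 52 h, against 1255, 1775 and 1804 TPM at 39 h (log2 change −1.0 ± 0.24). It lost the 2-fold mark without 39 h replicate 2 (−0.92), 39 h replicate 3 (−0.91) or 52 h replicate 2 (−0.77). FKF1, a blue light receptor of flowering time, was at 12.5, 6.41 and 8.76 TPM at 52 h, against 12.8, 21.9 and 21.1 TPM at 39 h, and TOC1, a repressor of the morning genes, changed by −0.24 ± 0.12 (adjusted p = 0.145). The list median was −0.16, against −0.41 with the complete medium and −0.42 without iron alone, and 3 were called higher and 4 lower without both replicate 1 libraries.

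Some light-harvesting genes also rose. Of 21 antenna genes, 8 rose and none fell (3.01% and 0.185% over all tested genes), with a median of 0.74, and 13 were not called. In +Fe+P 14 rose (background 0.724%, median 1.86) and in −Fe+P 7 (background 2.45%, median 0.54). The change was smaller than in +Fe+P for 2 of the 21 and larger for none (0.0582% and 1.06% over all tested genes). These were LHCB1.4, by −1.82 ± 0.38, and LHCA1, by −1.12 ± 0.26 (adjusted p = 0.0111 and 0.0186 in limma). None of the 21 differed from −Fe+P. LHCB2.2, an antenna protein of photosystem II, was at 347, 730.3 and 562 TPM at 52 h, against 202, 44 and 39.6 TPM at 39 h (log2 change 2.88 ± 0.45, adjusted p = 7.71e-05). Its copies LHCB2.1 and LHCB2.3 moved alike, at 2.86 and 2.75, but the 3 are near-identical and reads could be split among them. LHCB3, a minor component of the same antenna, was at 475, 1369 and 1084 TPM at 52 h, against 416, 195 and 183 TPM at 39 h (log2 change 1.86 ± 0.33). No sample at 39 h reached the lowest at 52 h in either gene, although 39 h replicate 1 was close. Leaving out both replicate 1 libraries gave 12. Of 26 genes of chlorophyll and heme synthesis 3 rose (against 3.01%), HEMA1, GUN5 and CAO, with changes of 1.46, 1.34 and 1.12. HEMA1 makes the first committed intermediate, GUN5 is part of magnesium chelatase and CAO makes chlorophyll b. Of 25 photosystem subunits 1 was called, and of 19 Calvin cycle genes none, where 4 passed the adjusted p as higher and 1 as lower.

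Nitrate and sugar starvation genes rose in part. Of 11 nitrate genes 5 rose and none fell (3.01% and 0.185% over all tested genes), with a median of 1.0 (0.44 in +Fe+P, 0.59 in −Fe+P), and 7 rose without both replicate 1 libraries. NIA2, the main nitrate reductase, was at 507, 862 and 793 TPM at 52 h, against 279, 248 and 209.8 TPM at 39 h (log2 change 1.52 ± 0.17, adjusted p = 9.42e-06), with no overlap. BT2, a nitrate-responsive scaffold protein, was at 219.8, 428 and 482 TPM at 52 h, against 213, 68.3 and 41.9 TPM at 39 h (log2 change 2.06 ± 0.46), where replicate 1 at 39 h was close to replicate 1 at 52 h. Of 11 sugar starvation markers 5 rose (against the same 3.01%), with a median of 0.74. TPS8, a trehalose phosphate synthase-like protein, was at 32.2, 58.5 and 61 TPM at 52 h, against 16.8, 8.68 and 8.09 TPM at 39 h (log2 change 2.15 ± 0.27), and DIN10, induced in the dark, rose by 1.67. SEN1 and SAG21, genes of the senescence list, rose by 1.76 and 1.53.

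The genes that fell were fewer and changed less. The microRNA precursor MIR775 was at 0.981, 1.4 and 0.945 TPM at 52 h, against 6.31, 5.31 and 6.18 TPM at 39 h, a log2 change of −2.01 ± 0.31 (adjusted p = 6.27e-05), with no overlap. MIR159b, the precursor of a microRNA that targets GAMYB-like factors, was at 5.68, 4.39 and 3.75 TPM at 52 h, against 12, 12 and 13.1 TPM at 39 h (log2 change −1.35 ± 0.25, adjusted p = 2.5e-04, −1.07 in −Fe+P). The 39 h samples of both were tight, and mature microRNAs were not measured. Both precursors are short, so their TPM stand for fewer reads than the same TPM of a longer gene. Their mature sequences share no seed and are shown because these precursors had the largest decreases among the named genes without overlap, with bases 2 to 8 in capitals (RefSeq TAIR10.1, chr1:29422546-29422565 and chr1:6220813-6220833, plus strand).
miR775: uUCGAUGUcuagcagugcca
miR159b-3p: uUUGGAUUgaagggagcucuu
The class III peroxidase gene AT2G18150 was at 17.2, 6.3 and 15.4 TPM at 52 h, against 35.7, 26.8 and 31.3 TPM at 39 h (log2 change −1.34 ± 0.29). Its relative AT4G36430 was at 12.2, 6.09 and 14.3 TPM at 52 h, against 30.1, 24.6 and 24.4 TPM at 39 h (log2 change −1.32 ± 0.24). Both were lowest in 52 h replicate 2, and without it their changes were under 2-fold (−0.91 and −0.97). EXPA15, a wall-loosening expansin, was at 22.4, 10.7 and 11.8 TPM at 52 h, against 30.9, 34.5 and 36 TPM at 39 h (log2 change −1.22 ± 0.18), and in none of these genes did the times overlap.

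Of 9 cytokinin genes, 2 were called lower and none higher (0.185% and 3.01% over all tested genes), with a median of −0.43, against 0.07 in +Fe+P and −0.18 in −Fe+P. ARR15, an inhibitor of cytokinin signaling, was at 1.51, 1.52 and 1.75 TPM at 52 h, against 4.27, 3.72 and 4.03 TPM at 39 h (log2 change −1.11 ± 0.11, adjusted p = 7.67e-06). Its change differed from that in +Fe+P by −1.08 ± 0.16 (adjusted p = 0.00361), which was under 2-fold with a pseudocount of 1 (−0.92), and the times did not overlap. ARR6, a relative, was at 3.93, 2.25 and 2.07 TPM at 52 h, against 4.25, 6.35 and 7.61 TPM at 39 h (log2 change −1.02 ± 0.26), again without overlap. The list kept 1 call without 39 h replicate 2 or 3 or without 52 h replicate 2 or 3.

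Genes of protein synthesis were lower at 52 h together, though by less than 2-fold. All 27 cytosolic ribosomal proteins passed the test as lower and none was called, with changes from −0.90 (RACK1B) to −0.36 (RPS6B) and a median of −0.62, against −0.14 in +Fe+P and −0.17 in −Fe+P. Of 25 genes of the nucleolus and rRNA processing, 20 passed as lower and 1, FIB2, was called, with a median of −0.57 (−0.12 in +Fe+P, −0.01 in −Fe+P). FIB2, a fibrillarin that methylates ribosomal RNA, was at 25, 17 and 16.7 TPM at 52 h, against 46.2, 37.4 and 43.7 TPM at 39 h (log2 change −1.12 ± 0.14, adjusted p = 2.05e-05). The times did not overlap and 52 h replicate 1 was the highest of its group. Of 35 genes of the cell cycle and DNA replication, 29 passed as lower and none was called, from −0.88 (PCNA1, the sliding clamp of replication) to −0.09, with a median of −0.42. Of 14 genes of the unfolded protein response, 10 passed as lower (median −0.45). This list was also lower in +Fe+P, where 9 passed (median −0.39), and 5 passed in −Fe+P (median −0.20). Over all tested genes 3724 of 18910 passed as lower, a background against which these counts are to be read.

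Short promoter motifs were counted in the same groups. The site II letters TGGGCC, searched on both strands, stood in 18 of 27 ribosomal protein promoters (66.7%) and 17 of 25 nucleolar ones (68%), against 19.4% of all windows and 6.85% of the genes that rose. The telo box AAACCCTAA, searched on both strands, was in 25.9% and 40% of these lists, against 3.25%. The TATCCA letters, searched on both strands, stood in 26.2% of the genes that rose and 42.9% of the antenna genes, against 16.6%.

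**Figure D4:**
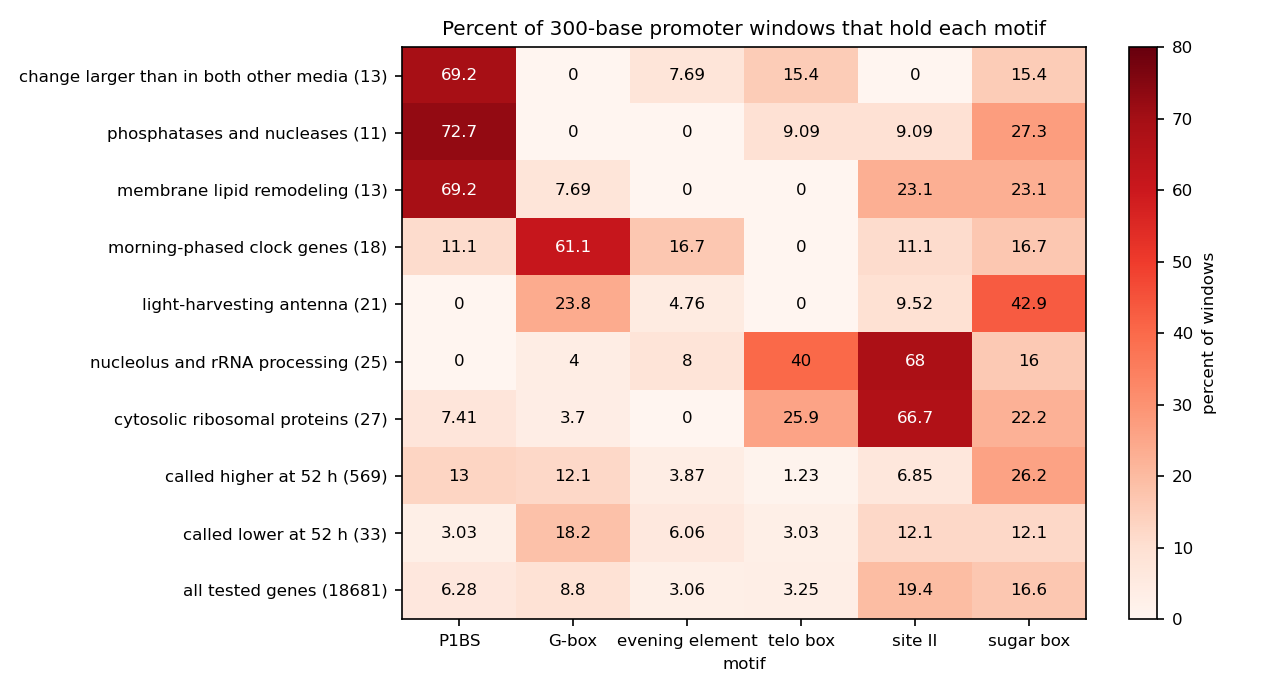
Percent of 300-base promoter windows with each of 6 motifs (columns; the sugar box is TATCCA), for gene groups (lines, with their number of windows) and for all 18681 tested genes. P1BS is at 69.2% to 72.7% in the phosphate groups, the G-box at 61.1% in the morning list and site II at 66.7% and 68% in the ribosomal and nucleolar lists.

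The genes the study itself followed up were not among those called. Of 10, none was called, the median was 0.18 and 1 passed the test as higher. In +Fe+P the median was 0.25 and 3 passed as higher, and in −Fe+P it was −0.17 and none passed. bZIP58, a transcription factor gene, was at 2.92, 2.33 and 3.69 TPM at 52 h, against 1.14, 2.35 and 2.41 TPM at 39 h (log2 change 0.52 ± 0.23, adjusted p = 0.0741), and the samples overlapped between the times.

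**Figure D5:**
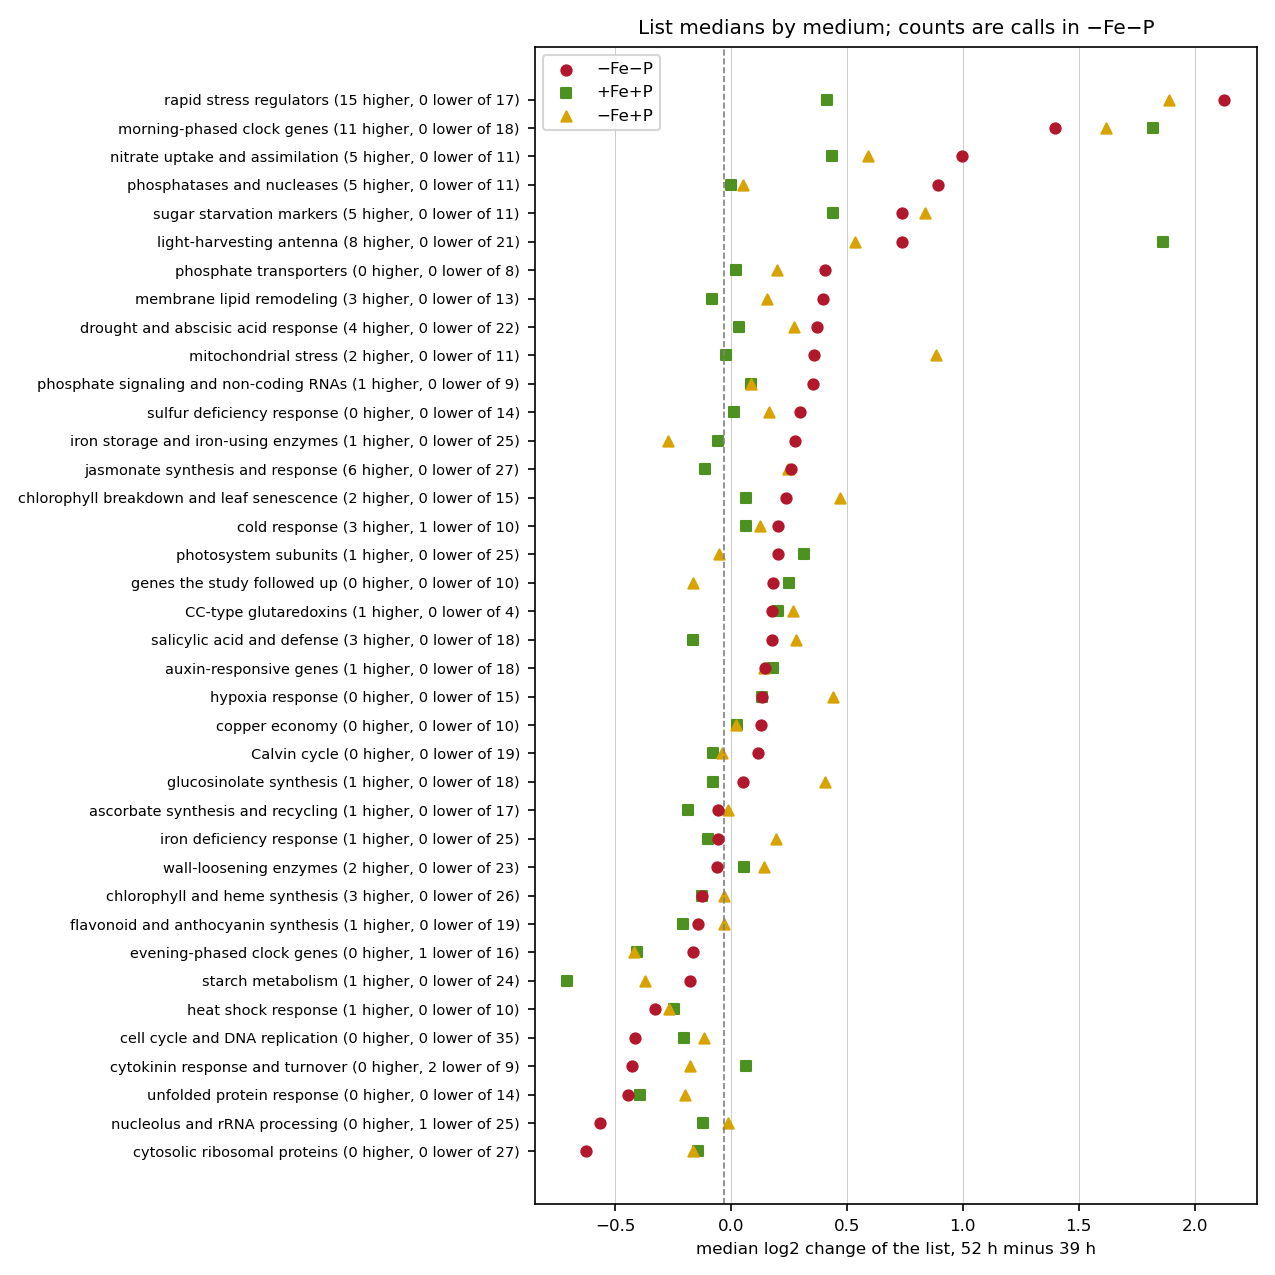
Median log2 change from 39 h to 52 h of each gene list in −Fe−P, +Fe+P and −Fe+P, with the called members in −Fe−P beside each name and a dashed line at the median of all tested genes. The morning clock list lies at 1.40, 1.82 and 1.62, the rapid stress list at 2.13, 0.41 and 1.89, and the phosphatase list at 0.89, 0.00 and 0.05. The last 2 values come from members at or near 0 TPM.

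Many of the genes that rose in −Fe−P also rose in another medium. Of the 569, 343 also rose in −Fe+P, which is 60.3% of them and 73.9% of the 464 that rose there. In +Fe+P 88 of them rose, which is 15.5% of them and 64.2% of the 137 that rose there. The number that rose in all 3 media was 76, and 214 rose in −Fe−P alone by these calls. The difference of the change itself was called larger for 154 of the 569 against +Fe+P and for 15 against −Fe+P. With 1 library left out, the 201 genes with a larger change than in +Fe+P became 79 without +Fe+P 39 h replicate 2, 104 without +Fe+P 52 h replicate 2, 411 without −Fe−P 52 h replicate 1, 88 without its replicate 2 and 58 without its replicate 3. The 20 larger than in −Fe+P became 34 without −Fe−P 39 h replicate 1, 58, 7 and 9 without −Fe−P 52 h replicates 1, 2 and 3, 12 without −Fe+P 39 h replicate 2 and 12 without replicate 1 of −Fe+P at 52 h. The 11 genes with a smaller change than in +Fe+P became 28 without +Fe+P 39 h replicate 1, 7 without its replicate 2 and 24 without −Fe−P 52 h replicate 1. The 15 smaller than in −Fe+P became 73 and 6 without −Fe−P 39 h replicates 1 and 3, 48, 3 and 5 without −Fe−P 52 h replicates 1, 2 and 3, 3 without −Fe+P 39 h replicate 2, and 8 and 9 without −Fe+P 52 h replicates 1 and 3. Of the 35 that fell, 8 also fell in −Fe+P and 5 in +Fe+P.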

How the data were processed

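RNA of whole shoots was sequenced by the authors from poly(A) selected libraries on a NextSeq 500, aligned to TAIR10 with HISAT2 and tested with DESeq2; versions are not given in the sources used here. The deposited values are TPM per gene, computed by the authors by a method that is not stated, nor is the strand of the libraries, so overlapping genes may share reads. For each gene the TPM moved in whole multiples of 1 step per sample within 0.02 reads for all 29156 genes above 0, which gave 25.6 to 56.5 megareads per sample. A gene at 1 to 1.1 TPM had a median of 35 reads, and a short gene, such as a microRNA precursor, has fewer at the same TPM. Counting error and precision follow from this depth.

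Samples were grouped by their labels. Gene names came from RefSeq, which matched 32835 of 33602 identifiers, and 24 listed genes were left out because the reference did not give the name. Genes whose mean over all samples reached 1 TPM, 18910 in all, were fitted as log2(TPM + 0.5) with limma 3.58.1 in R 4.3.3, with 9 group means, no block and a trend in eBayes. Adjustment was by Benjamini-Hochberg within each comparison over all genes. The change in −Fe−P was set against that in +Fe+P and −Fe+P as contrasts of the fit. Named genes were the 15 called genes with the highest and the 15 with the lowest change whose 6 samples did not overlap (at least 5 TPM in the higher group), and the 5 called list members with the largest change. Members of the phosphate, iron and clock lists, whether called or not, and the genes the study followed up were also named. Of the genes whose change differed from both media, the 8 with the largest difference from +Fe+P and a group mean of at least 5 TPM were named by rule. The members and gene lists were chosen with earlier results of these data known. Promoters were 300-base windows of RefSeq TAIR10.1. Alternatives were other pseudocounts, filters, scalings and eBayes settings, no fold minimum, a replicate block, only the samples of the comparison, and each library left out. The scripts were tested on simulated data.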

Additional observations from a re-analysis of the deposited data

Results flagged for a closer look

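For 13 genes the log2 change from 39 h to 52 h in −Fe−P differed between media by the limma test of the difference itself, against +Fe+P and against −Fe+P, in 3 samples per group. Given here are the 8 with the largest difference from +Fe+P among those with a group mean of at least 5 TPM. PAP5, MIR399c, PAP25 and AT5G17340 differed by more than some of these 8 but stayed below that level. PAP14 differed by 2.42 from +Fe+P and by 2.41 from −Fe+P, PAP24 by 2.04 and 2.02, and IPS1 by 1.55 and 1.68. All 6 of these differences stayed called with each of 12 libraries left out in turn, with adjusted p up to 0.0441. PPCK2 differed by 1.41 and 1.26, and the difference from −Fe+P was lost for 7 of the 12 libraries (adjusted p up to 0.116). AT1G72416 differed by 1.35 and 1.04, the second lost for 9 of 12, and AT1G67920 by 1.15 and 1.09, lost for 7 and 10 of 12. AT2G04460 differed by 1.07 and 1.27, and ENH1 by 1.06 and 1.32, where the difference from +Fe+P was lost for 2 and 4 of 12. Each difference kept its sign throughout. With only the samples of each comparison in the fit, none of the 16 stayed called.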

How the results depend on the processing

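None of the 105 named genes called in −Fe−P changed sign under any alternative, but 28 of the 114 not called did under at least 1, PHT1;1 among them (0.04 as reported, −0.67 without both replicate 1 libraries). The balance of counts did turn under some settings, as given here. In −Fe−P, 569 genes rose under the reported settings and 453 to 769 with 1 library left out, while the 35 that fell became 10 to 87. Differences from +Fe+P ran from 58 to 411 larger and 7 to 28 smaller, and differences from −Fe+P from 7 to 58 larger and 3 to 73 smaller, with 34 larger and 73 smaller without −Fe−P 39 h replicate 1. Without a fold minimum 2956 genes rose and 3724 fell in −Fe−P, 621 and 172 changes were larger and smaller than in +Fe+P, and 59 and 360 than in −Fe+P, against 20 and 15 as reported. A pseudocount of 1 gave 20 genes that fell and 7 smaller changes than in +Fe+P, and a minimum mean of 5 TPM also gave 7. Without a filter 133 changes were larger than in +Fe+P. Median-of-ratios scaling gave 23 smaller than in +Fe+P, and against −Fe+P 24 larger and 9 smaller, so that larger changes were 72.7% of the calls, against 57.1% as reported. With only the samples of the comparison the counts were 59 and 6 against +Fe+P, and 0 and 1 against −Fe+P. With both replicate 1 libraries of −Fe−P left out, which was chosen after seeing the data, 844 rose and 124 fell, 517 and 27 changes were larger and smaller than in +Fe+P, and 120 and 135 than in −Fe+P. The causes were not tested.

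The replicate numbers did not pair the samples: deviations of same-numbered 52 h and 39 h samples correlated across genes at −0.20, 0.09 and −0.29. A replicate block gave 565 genes that rose and 35 that fell, 192 and 11 differences from +Fe+P and 22 and 14 from −Fe+P. Of 105 named genes called in −Fe−P, 72 kept the call under every alternative and 76 with each replicate left out. With 3 samples per group, and 1 TPM near 35 reads, small changes of weak genes were not detectable.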

Other observations

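Other gene groups of the shoot showed single members that rose in −Fe−P without the group as a whole. Of 10 cold response genes 3 rose and 1 fell (3.01% and 0.185% over all tested genes, which also stand behind the counts that follow). CBF2, a transcription factor of cold acclimation, was at 3.74, 4.01 and 7.39 TPM at 52 h, against 2.46, 0.213 and 0.168 TPM at 39 h (log2 change 2.25 ± 0.5), and GolS3, which makes galactinol, at 2.85, 3.07 and 3.31 TPM, against 0.770, 0.463 and 0.389 TPM (1.8 ± 0.15, adjusted p = 7.05e-07). The 52 h samples of both were above all 39 h samples. Of 11 genes of mitochondrial stress 2 rose, with OM66, an outer membrane protein, at 11.4, 13.6 and 18.6 TPM at 52 h, against 6.47, 4.54 and 4.23 TPM at 39 h (1.42 ± 0.28). Of 18 glucosinolate genes, MYB51, an activator of indole glucosinolate synthesis, alone rose, by 2.05. Of 24 starch genes, GBSS1, which makes amylose, alone rose, by 1.22, against a list median of −0.18, and of −0.71 with the complete medium and −0.37 without iron alone. Of 23 wall-loosening enzymes 2 rose, TCH4 and its relative XTH24 (1.84), and the count was 4 without 52 h replicate 1 and 5 without both replicate 1 libraries. Of 15 senescence genes 2 rose, and the count was 4 without either replicate 1 library and 5 without both. None of 10 copper economy genes, 15 hypoxia genes and 14 sulfur deficiency genes was called in the limma fit, where 2, 3 and 6 passed the adjusted p as higher.

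The seed storage gene SESA5 was at 0.40, 0.0518 and 0.233 TPM at 52 h, against 22.9, 0.424 and 0.343 TPM at 39 h, where replicate 1 alone was high. Its log2 change of −1.88 was called with all libraries and became −0.31 without 39 h replicate 1 (adjusted p = 0.303 in limma).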
